A study of Homo sapiens with 4 samples.

Results

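The nuclear genes of mitochondrial respiratory complexes I to IV and of factors that assemble them were examined in A549 cells with RBM10 knockdown. They were chosen by name, as protein-coding genes whose symbol begins with NDUF or UQCR, is SDHA, SDHB, SDHC or SDHD, or is COX followed by a digit. The naming rule reads no measured value, though it was written with earlier results of these data known. Of 87 such genes in the annotation, 81 were among the 17041 genes of the expression table. UQCRHL, COX4I2, COX6A2, COX7A1, COX7B2 and COX8C were not analysed here. The splicing table held 4 junction events in 3 of the genes, among 3768 events in 2166 genes. The naming rule also takes in the readthrough gene NDUFC2-KCTD14, and it leaves out CYC1, the ATP synthase and most assembly factors named otherwise, which were followed as separate lists.

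A549 is a human lung adenocarcinoma line. The RBM10 knockdown group had 2 libraries of A549 cells in which a lentivirus delivered an shRNA to RBM10, a splicing regulator, and which were kept in 1 µg/mL puromycin for 10 to 14 days. The RBM10 wild-type group had 2 libraries of A549 cells, and the labels do not say whether these cells received a control construct or puromycin. All 4 libraries of polyadenylated RNA carry the same batch label and had stranded read pairs of 100 bp, per the labels. Because one shRNA was used and the control treatment is not stated, effects of lower RBM10, of transduction and of selection cannot be told apart. The labels do not say whether replicates came from separate cultures, so the spread that p-values are set against is that of these libraries and may be technical.

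The respiratory chain sits in the inner mitochondrial membrane, where complex I takes electrons from NADH, complex II takes them from succinate, complex III passes them from ubiquinol to cytochrome c, and complex IV hands them to oxygen. Complexes I, III and IV pump protons as they do so, and the gradient drives ATP synthase. Complexes I, III and IV are built from nuclear and mitochondrial genes, complex II from nuclear genes alone, and dedicated assembly factors insert hemes, copper, iron-sulfur clusters and mitochondrially made subunits.

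Expression was read as RPKM, reads scaled to the length of a gene and the size of a library, and compared on log2(RPKM + 1), which understates the change of genes at low level. The targeted gene, RBM10, stood at 11.6 and 10.9 RPKM in knockdown libraries, against 35.5 and 40.8 RPKM in wild-type libraries. Its log2 change was -1.67 (SE 0.109, limma adjusted p = 1.01e-05), in the direction of the labels. Depth, as a share of that of the deepest library, was 84.5% and 95.6% in the knockdown group and 99.0% and 100% in the wild-type group. Of 7 markers of A549 and epithelial cells, all were listed, and in the limma test 4 rose and 2 fell. The keratins KRT8, KRT18 and KRT7 rose by 0.96, 0.94 and 0.58 on the log2 scale and EPCAM by 0.90, while NQO1 had a log2 change of -0.48 and AKR1B10 of -0.99. Summed, the 7 reached 6431 and 6495 RPKM in knockdown libraries, against 6050.4 and 6281 RPKM in wild-type libraries. Among markers of other cells, the summed level of the 2 listed fibroblast markers of 3 was at most 0.251 RPKM in knockdown and at most 0.0477 RPKM in wild-type libraries. PECAM1, the 1 listed endothelial marker of 3, reached at most 0.0130 RPKM in knockdown and 0.00730 RPKM in wild-type libraries. Of 3 immune markers only CD68 was listed, at 3.49 and 3.57 RPKM in knockdown libraries, against 1.56 and 1.72 RPKM in wild-type libraries. The part of these markers in the results below was not tested.

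Most respiratory chain genes did not pass the test in RBM10 knockdown cells, and the share that fell was near that of all tested genes. Of the 81 genes, 76 had a mean of at least 1 RPKM in 1 group and were tested among 10182 genes. In the limma test, 1 gene rose, UQCRH, and 7 fell: COX20, COX15, COX10, NDUFA2, NDUFA4, NDUFA10 and NDUFAF4. These 8 genes are 10.5% of those tested, where 22.3% of all tested genes were called. The share that rose was 1.32%, where 15.3% of all tested genes rose, and the share that fell was 9.21%, where 7.03% of all tested genes fell. Without adjustment, 13 of the 76 had a p under 0.05 (17.1%), where 35.6% of all tested genes did. In bulk RNA, fewer cells of a kind and less RNA per cell cannot be told apart.

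The median log2 change of the 76 genes was -0.04, where that of all tested genes was 0.02. The sign of this median depended on scaling and on single libraries, with 0.02 under cyclic loess scaling and 0.00 without knockdown replicate 2. The 68 genes that did not pass the test each had an absolute log2 change under 0.3, and on the scale of RPKM + 1 the 95% interval of each lay within a 1.5-fold change in either direction, a bound that does not carry over to the RPKM of genes at low level. Groups did not overlap in 14 genes with knockdown higher and 22 with knockdown lower, and over all tested genes such genes made up 34.3% and 27.3%. Under quantile scaling all tested genes split into 1140 higher and 1031 lower, against 1555 and 716 without it, and of the respiratory chain genes 3 rose and 7 fell. With knockdown replicate 2 left out, 2 respiratory chain genes fell and 1 rose, and with wild-type replicate 2 left out, 4 fell and 3 rose. When all 17041 genes were tested without a filter on low values, COX20 and UQCRH kept their calls, and the other 6 did not.

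**Figure D1:**
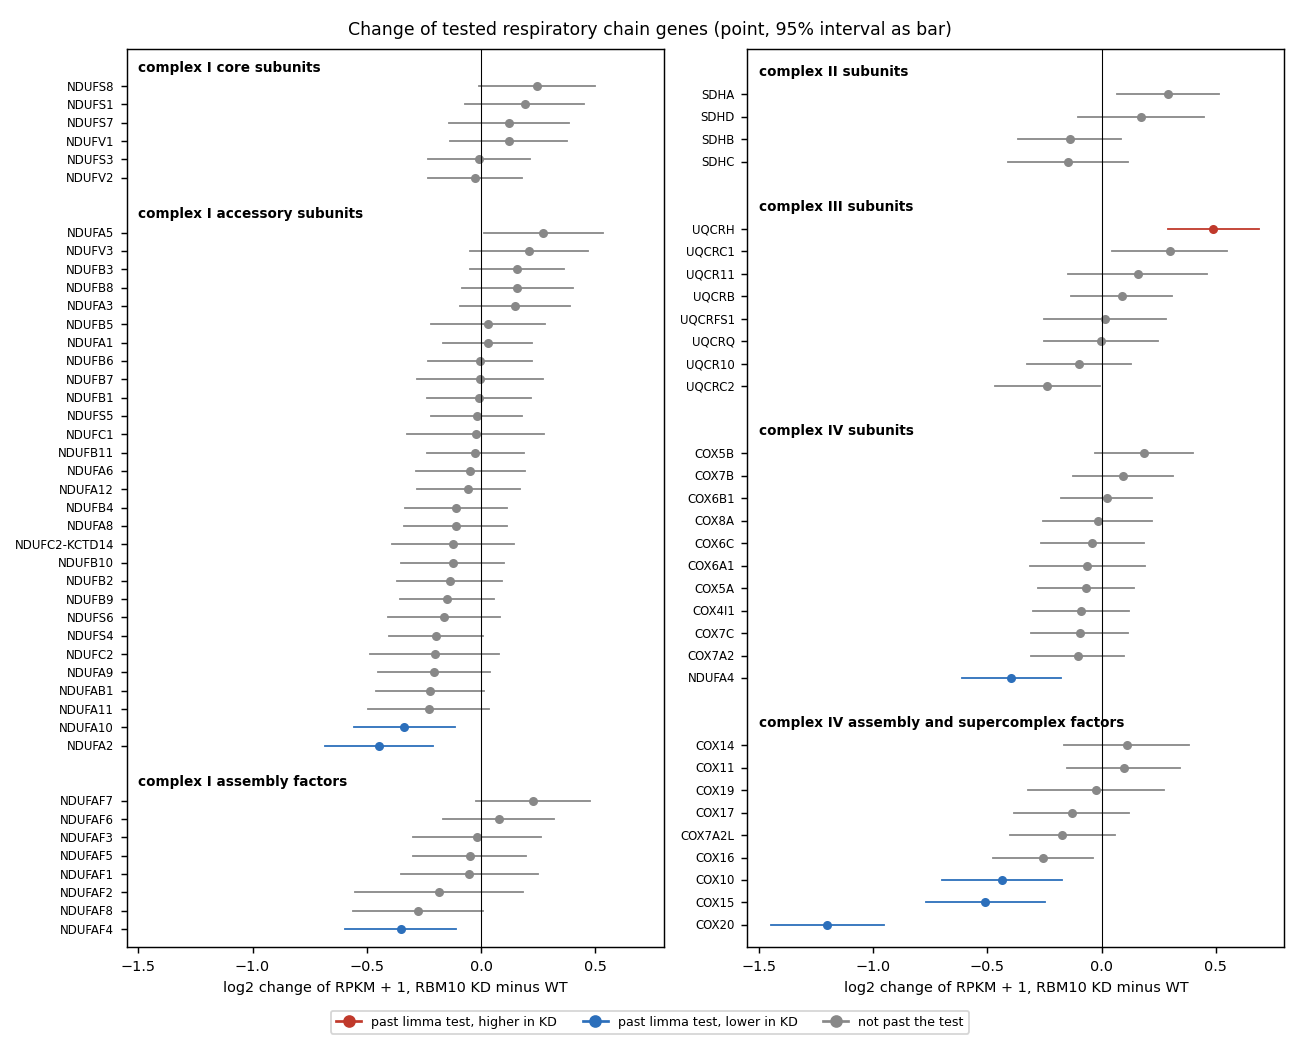
Log2 change of RPKM + 1 (knockdown minus wild type) for 75 of the 76 tested genes, grouped by complex and role, with the point estimate and its 95% interval as a bar. Genes past the limma test are in colour, 1 in the higher and 7 in the lower direction, and COX20 lies farthest from zero at -1.20.

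Promoters are given for the 3 COX-named complex IV assembly factors that fell and for the 1 respiratory chain gene that rose. Genes of opposite direction can thus be read side by side. Each is the RefSeq window (GRCh38.p14) from 250 bases before to 50 bases after the annotated start, read 5′ to 3′ on the gene's strand. Capitals mark CCGGAAG, a core bound by ETS family factors, and AAGATGGCG, a form of the YY1 site, searched on both strands, so that CTTCCGG is the ETS core on the other strand. The windows are chr1:244835056-244835355 (+) for COX20, chr10:99732078-99732377 (-) for COX15, chr17:14069254-14069553 (+) for COX10 and chr1:46303448-46303747 (+) for UQCRH. COX20 has 3 windows, and the one nearest the GENCODE start is shown.
COX20: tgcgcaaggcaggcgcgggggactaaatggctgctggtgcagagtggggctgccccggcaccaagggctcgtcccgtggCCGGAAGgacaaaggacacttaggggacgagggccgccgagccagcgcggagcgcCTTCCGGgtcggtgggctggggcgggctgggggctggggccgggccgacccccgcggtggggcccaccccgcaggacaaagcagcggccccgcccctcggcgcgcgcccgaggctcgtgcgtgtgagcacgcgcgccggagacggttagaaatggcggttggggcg
COX15: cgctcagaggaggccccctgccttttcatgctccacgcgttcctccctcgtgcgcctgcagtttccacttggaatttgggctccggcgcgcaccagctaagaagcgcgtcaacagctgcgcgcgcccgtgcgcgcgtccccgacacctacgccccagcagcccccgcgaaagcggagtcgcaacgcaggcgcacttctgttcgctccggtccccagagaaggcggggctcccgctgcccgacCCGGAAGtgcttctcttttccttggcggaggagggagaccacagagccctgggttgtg
COX10: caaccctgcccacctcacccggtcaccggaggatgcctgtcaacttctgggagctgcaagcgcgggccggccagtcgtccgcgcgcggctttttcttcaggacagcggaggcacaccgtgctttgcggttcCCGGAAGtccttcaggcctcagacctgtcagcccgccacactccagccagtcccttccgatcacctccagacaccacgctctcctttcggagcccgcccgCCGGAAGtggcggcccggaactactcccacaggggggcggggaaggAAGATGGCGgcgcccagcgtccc
UQCRH: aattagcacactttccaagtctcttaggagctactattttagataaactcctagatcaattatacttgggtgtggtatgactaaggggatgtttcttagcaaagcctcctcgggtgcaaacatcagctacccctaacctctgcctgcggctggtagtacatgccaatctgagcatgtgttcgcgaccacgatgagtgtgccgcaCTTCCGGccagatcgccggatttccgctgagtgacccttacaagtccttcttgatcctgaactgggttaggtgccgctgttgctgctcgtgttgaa
The ETS core occurred at 2 places in the COX20 window, 2 in COX10, 1 in COX15 and 1 in UQCRH, and the COX10 window also held the YY1 form. Windows of NDUFAF4 held 1 ETS core, those of NDUFA2 and NDUFA10 held none of the motifs searched, and NDUFA4 was not matched to a window. Thus the gene that rose and genes that fell both carried the ETS core. RefSeq windows were matched to 69 of the 81 genes. The ETS core was in 26.4% of their 87 windows, where 10.3% of all 35116 windows held it. GCGCATGCG, a form of the NRF1 site, was in 12.6% of the windows of these genes, where 1.92% of all windows held it. AAGATGGCG was also in 12.6%, where 1.75% of all windows held it. All windows belong to 27305 genes and were not matched to the respiratory chain genes in gene type or expression level. A match is a description of letters and shows no binding.

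COX-named factors of complex IV assembly and supercomplexes held 3 of the 7 genes that fell, a share not tested for enrichment. Among the 9 tested of this class, 3 fell (33.3%) and none rose, with a median log2 change of -0.17. Assembly factors with other names, those of complex IV included, were read as a separate list that was not split by complex. Of 34 tested in that list 4 fell and 1 rose, with a median log2 change of -0.11. Of all tested genes, 7.03% fell and 15.3% rose. COX20, a chaperone for the newly made mitochondrial subunit COX2, had 2.87 and 2.63 RPKM in knockdown libraries, against 7.54 and 7.68 RPKM in wild-type libraries. Both knockdown libraries lay far below both wild-type libraries, at a mean of 36.1% of the wild-type level. The log2 change was -1.20 (SE 0.111, limma adjusted p = 7.47e-05), and COX20 passed the test under every alternative run. COX20 (chr1:244835322-244845057, + strand, hg38) runs against HNRNPU on the other strand, which covers 72.0% of its exonic bases. HNRNPU, an abundant nuclear RNA-binding protein, had 30.2 and 36.1 RPKM in knockdown libraries, against 42.3 and 38.3 RPKM in wild-type libraries, and did not pass the test (log2 change -0.28, adjusted p = 0.112). Whether strand was used in counting is not stated, so reads of the overlapping pair may not have been told apart.

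COX15 and COX10 act one after the other in making heme A, the heme found in cytochrome c oxidase. COX10, which adds the farnesyl tail, had 3.22 and 2.74 RPKM in knockdown libraries, against 4.46 and 4.30 RPKM in wild-type libraries. COX15, the heme A synthase, had 7.70 and 6.86 RPKM in knockdown libraries, against 11.5 and 10.1 RPKM in wild-type libraries. In both genes the groups were apart, with knockdown means at 68.0% of wild type for COX10 and 67.5% for COX15. COX10 changed by -0.44 (SE 0.117, limma adjusted p = 0.0247), and COX15 by -0.51 (SE 0.116, adjusted p = 0.0123). Without knockdown replicate 2 neither passed, at an adjusted p of 0.217 for COX10 and 0.0879 for COX15, and without wild-type replicate 1 COX10 had an adjusted p of 0.0709. COX15 (chr10:99711844-99732100, - strand) overlaps CUTC on the other strand without sharing exonic bases, and CUTC had 55.3 and 54.5 RPKM in knockdown libraries, against 49.1 and 44.7 RPKM in wild-type libraries.

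The other tested COX-named factors of this class did not pass. COX16, which takes part in the maturation of subunit COX2, had 23.2 and 24.5 RPKM in knockdown libraries, against 29.2 and 28.3 RPKM in wild-type libraries, groups that did not overlap (log2 change -0.26, adjusted p = 0.0892). COX17, the copper chaperone and the most abundant of the class, had 34.9 and 31.5 RPKM in knockdown libraries, against 33.6 and 39.5 RPKM in wild-type libraries. COX7A2L, also called SCAF1, joins complexes III and IV into supercomplexes and had 12.5 and 12.3 RPKM in knockdown libraries, against 13.8 and 14.5 RPKM in wild-type libraries (log2 change -0.17, adjusted p = 0.261). COX14, which accompanies newly made COX1, had the highest change of the class, 0.11, with groups that overlapped. COX18 was under 1 RPKM in all libraries and was not tested.

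**Figure D2:**
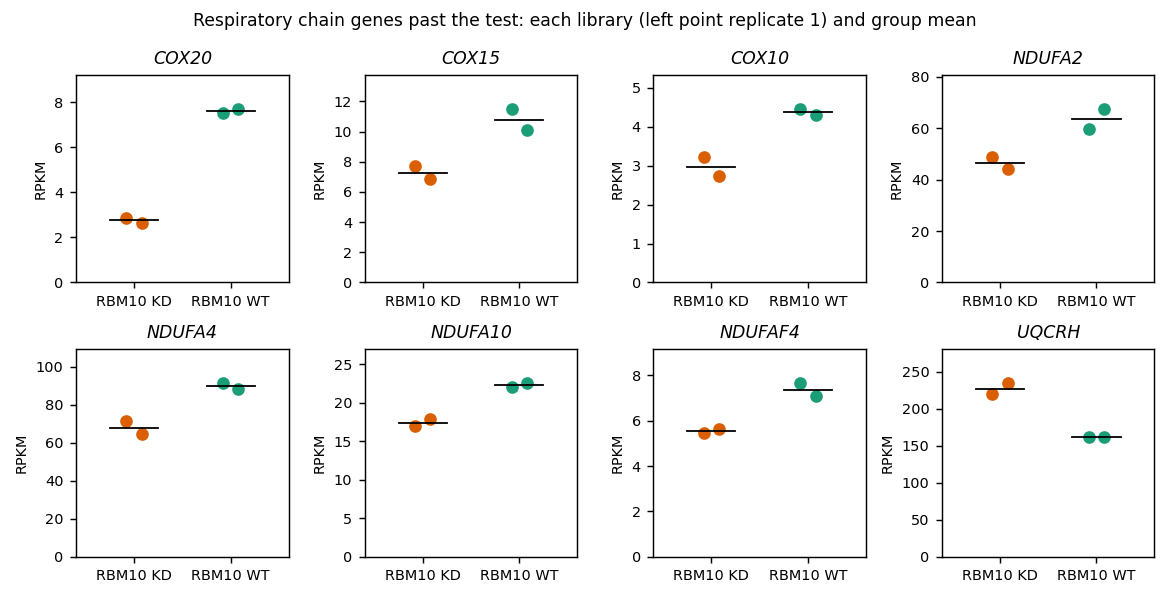
RPKM of the 8 genes past the test in each library, with knockdown left and wild type right, the left point of a pair being replicate 1 and the line the mean of 2 libraries. In each gene both knockdown points lie on one side of both wild-type points, above them in UQCRH and below them in the other 7.

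Among complex I genes of the naming rule, 2 structural genes and 1 assembly factor fell, and none of the core genes passed the test. NDUFA2, an accessory subunit of the NADH-binding module, had 48.8 and 44.0 RPKM in knockdown libraries, against 59.8 and 67.4 RPKM in wild-type libraries. The knockdown mean was 72.9% of wild type, without overlap (log2 change -0.45, SE 0.105, limma adjusted p = 0.0140). Without knockdown replicate 2 its adjusted p was 0.105, and without wild-type replicate 2 it was 0.0526. NDUFA2 (chr5:140638740-140647785, - strand) shares 8.33% of its exonic bases with TMCO6 on the other strand, which rose, with 6.37 and 6.91 RPKM in knockdown libraries, against 4.54 and 4.35 RPKM in wild-type libraries (log2 change 0.49, adjusted p = 0.0122). NDUFA10, an accessory subunit of the membrane arm, had 17.0 and 17.9 RPKM in knockdown libraries, against 22.02 and 22.5 RPKM in wild-type libraries. These groups were also apart, at a log2 change of -0.34 (SE 0.0993, adjusted p = 0.0376). Its call rested on all 4 libraries, since its adjusted p was 0.0674 to 0.261 with any 1 of them left out, and 0.0582 under cyclic loess scaling.

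The 7 core subunits, most of which carry the flavin or iron-sulfur clusters, had a median log2 change of 0.12, which was -0.01 without wild-type replicate 1. NDUFS8, which carries iron-sulfur clusters near the ubiquinone site, had the highest change among them, with 91.6 and 84.2 RPKM in knockdown libraries, against 66.9 and 81.6 RPKM in wild-type libraries (log2 change 0.25, adjusted p = 0.154). It passed under cyclic loess scaling and without wild-type replicate 2. The accessory subunits had a median log2 change of -0.05 and a range of -0.45 to 0.27, with 2 of 29 lower and none higher. NDUFS5 and NDUFA1 were the most abundant complex I genes. NDUFS5 had 262 and 247 RPKM in knockdown libraries, against 253 and 262 RPKM in wild-type libraries, and NDUFA1 had 221 and 218 RPKM in knockdown libraries, against 218 and 212 RPKM in wild-type libraries. Both pairs of groups overlapped. NDUFA5 had the highest change among complex I subunits, with 4.04 and 4.06 RPKM in knockdown libraries, against 3.44 and 2.94 RPKM in wild-type libraries (log2 change 0.27, adjusted p = 0.125).

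NDUFB11, an accessory subunit of the membrane arm, is the neighbour of RBM10 on chromosome X (chrX:47142216-47145504, - strand) and shares 44.9% of its exonic bases with RBM10 on the other strand. It had 77.2 and 74.2 RPKM in knockdown libraries, against 74.0 and 80.2 RPKM in wild-type libraries. The groups overlapped while RBM10 fell, and the log2 change of NDUFB11 was -0.02, with a 95% interval of -0.24 to 0.19. The readthrough gene NDUFC2-KCTD14 had 40.2 and 33.7 RPKM in knockdown libraries, against 37.3 and 43.1 RPKM in wild-type libraries, while NDUFC2 itself, a membrane arm subunit, was listed at 2.77 and 3.43 RPKM in knockdown and 3.47 and 3.94 RPKM in wild-type libraries. Reads of these overlapping genes may have been split between them, and both values are uncertain. NDUFA13 and NDUFA7, also accessory subunits, overlap other genes on their own strand and were listed under 1 RPKM in every library, so they were not tested.

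Among the 8 NDUFAF-named complex I assembly factors, 1 fell and none rose. NDUFAF4, which acts with NDUFAF3 early in building the ubiquinone-binding module, had 5.47 and 5.64 RPKM in knockdown libraries, against 7.64 and 7.11 RPKM in wild-type libraries. The groups were apart (log2 change -0.35, SE 0.109, limma adjusted p = 0.0442), but with any 1 library left out the adjusted p was 0.0589 to 0.240. Its partner NDUFAF3 had 36.2 and 30.02 RPKM in knockdown libraries, against 30.5 and 36.5 RPKM in wild-type libraries, which overlap fully. NDUFAF8, the most abundant of the class, had 97.1 and 86.8 RPKM in knockdown libraries, against 98.1 and 126 RPKM in wild-type libraries (log2 change -0.28, adjusted p = 0.151), and passed without wild-type replicate 1. NDUFAF2, an assembly factor, had 24.3 and 37.04 RPKM in knockdown libraries, against 33.9 and 34.6 RPKM in wild-type libraries, and passed without knockdown replicate 2 (log2 change -0.48, adjusted p = 0.0321). NDUFAF7, a methyltransferase, had the highest change of the class, with 9.50 and 8.78 RPKM in knockdown libraries, against 8.09 and 7.24 RPKM in wild-type libraries (log2 change 0.23, adjusted p = 0.177).

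None of the 4 complex II genes passed the test, and they did not share a direction. SDHA, the flavin subunit that oxidises succinate, had 32.8 and 31.4 RPKM in knockdown libraries, against 25.1 and 27.1 RPKM in wild-type libraries. SDHB, the iron-sulfur subunit, had 79.9 and 69.7 RPKM in knockdown libraries, against 82.7 and 82.0 RPKM in wild-type libraries. Between these partners of the matrix arm, knockdown lay above wild type in SDHA (log2 change 0.29, 95% interval 0.07 to 0.51, limma adjusted p = 0.0646) and below it in SDHB (-0.14, adjusted p = 0.352). The membrane anchors bind ubiquinone. SDHC had 17.97 and 21.4 RPKM in knockdown libraries, against 20.5 and 23.2 RPKM in wild-type libraries (log2 change -0.15, adjusted p = 0.406). SDHD had 5.68 and 5.86 RPKM in knockdown libraries, against 5.56 and 4.50 RPKM in wild-type libraries (log2 change 0.17, adjusted p = 0.349). SDHA passed the test under cyclic loess scaling.

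In complex III, 1 of 8 genes rose and none fell. UQCRH, the hinge protein between cytochrome c1 and cytochrome c, had 220 and 234 RPKM in knockdown libraries, against 161.4 and 161.2 RPKM in wild-type libraries. Both knockdown libraries stood above both wild-type libraries, at 141% of their mean. The log2 change was 0.49 (SE 0.0890, limma adjusted p = 0.00395), and UQCRH passed under every alternative run. UQCRH (chr1:46303631-46316776, + strand) has a near-identical intronless copy, UQCRHL, not analysed here, and reads of the 2 may not have been told apart. UQCRC1 and UQCRC2 form the large matrix-facing core. UQCRC1 had 77.3 and 66.9 RPKM in knockdown libraries, against 54.3 and 62.6 RPKM in wild-type libraries (log2 change 0.30, adjusted p = 0.0877). UQCRC2 had 36.7 RPKM in both knockdown libraries, against 46.4 and 40.7 RPKM in wild-type libraries (log2 change -0.24, adjusted p = 0.127). The pair thus lay on opposite sides of wild type, each without overlap and neither past the test, although UQCRC1 passed under quantile and cyclic loess scaling and without wild-type replicate 2. UQCRQ, the second most abundant gene of the complex, had 116 and 94.5 RPKM in knockdown libraries, against 103 and 106 RPKM in wild-type libraries.

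Of 11 tested complex IV subunits, 1 fell and none rose. NDUFA4, first described in complex I and now placed in complex IV, had 71.6 and 64.4 RPKM in knockdown libraries, against 91.1 and 88.1 RPKM in wild-type libraries. The groups were apart, at 75.8% of the wild-type mean (log2 change -0.40, SE 0.0968, limma adjusted p = 0.0169). Without knockdown replicate 2 its adjusted p was 0.177. NDUFA4L2, its hypoxia-induced paralog, had 0.526 and 0.317 RPKM in knockdown libraries, against 0.214 and 0.485 RPKM in wild-type libraries, and was too low to be tested. COX5B, which binds zinc, had the highest change among the subunits, with 237 and 230.2 RPKM in knockdown libraries, against 193 and 218 RPKM in wild-type libraries (log2 change 0.19, adjusted p = 0.197). It passed under quantile and cyclic loess scaling.

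Several complex IV subunits exist as tissue isoforms, of which several were not analysed here, as given above. COX6A1 and COX8A were the most abundant. COX6A1 had 275 and 231 RPKM in knockdown libraries, against 245 and 282 RPKM in wild-type libraries, and COX8A had 251 and 226 RPKM in knockdown libraries, against 223 and 260.4 RPKM in wild-type libraries. Within either group the replicates differed by more than the group means did. COX4I1, the largest nuclear-encoded subunit, had 203 and 195 RPKM in knockdown libraries, against 201 and 224 RPKM in wild-type libraries (log2 change -0.09, adjusted p = 0.530). COX6B1, which links the monomers of the dimer, had 139.7 and 132 RPKM in knockdown libraries, against 133 and 135 RPKM in wild-type libraries. COX7A2 had 101 and 95.4 RPKM in knockdown libraries, against 106 and 105 RPKM in wild-type libraries, and COX7B had 81.0 and 76.7 RPKM in knockdown libraries, against 77.6 and 70.3 RPKM in wild-type libraries. None of these isoforms passed the test. COX6B2, the testis isoform, had 0.756 and 0.582 RPKM in knockdown libraries, against 0.0600 and 0.0297 RPKM in wild-type libraries. It was below the filter, both knockdown libraries were above both wild-type libraries, and it passed when the filter was left out (log2 change 0.67, adjusted p = 0.0127).

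Summed RPKM of a class gives most weight to its abundant genes. Complex III summed to 593 and 559 RPKM in knockdown libraries, against 494 and 508 RPKM in wild-type libraries, a ratio of 1.15 without overlap. UQCRH alone holds more than any other gene of that sum, at 220 and 234 RPKM in knockdown and 161.4 and 161.2 RPKM in wild-type libraries. The median log2 change of the 8 genes was 0.05, and 7 of them did not pass the test. The higher sum thus does not speak for the class as a whole. Complex IV assembly and supercomplex factors summed to 115 and 109 RPKM in knockdown libraries, against 125 and 135 RPKM in wild-type libraries, a ratio of 0.864 without overlap. Complex I assembly factors summed to 181 and 177 RPKM in knockdown libraries, against 187 and 221 RPKM in wild-type libraries, with a ratio of 0.878 that became 0.959 without wild-type replicate 2. Much of these sums was NDUFAF8, which did not pass the test. It held 97.1 and 86.8 RPKM in knockdown libraries, against 98.1 and 126 RPKM in wild-type libraries. Sums of complex I core, complex I accessory, complex II and complex IV subunits overlapped between the groups, with ratios of 1.06, 0.962, 0.978 and 0.977. All 81 genes together summed to 4951 and 4586 RPKM in knockdown libraries, against 4670.3 and 4990 RPKM in wild-type libraries.

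**Figure D3:**
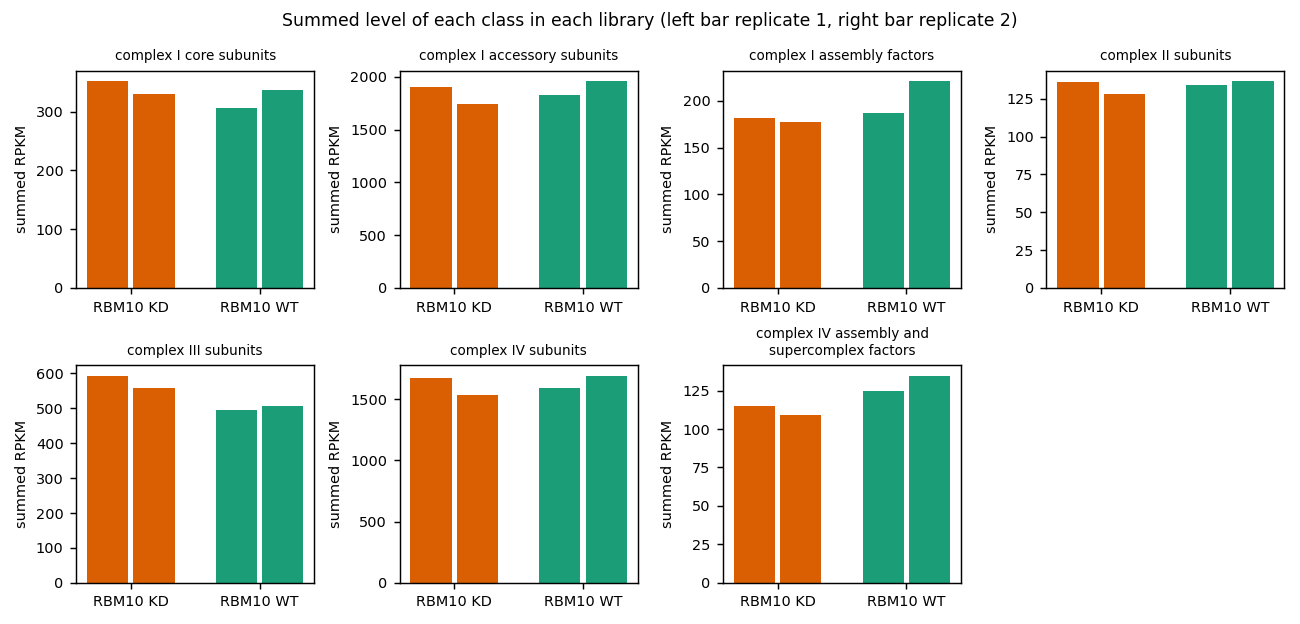
Summed RPKM of each class in each library, knockdown left and wild type right, with the left bar of a pair being replicate 1 and all axes starting at 0. Complex III bars are higher in both knockdown libraries, bars of complex I and complex IV assembly factors are lower in both, and the other 4 classes overlap.

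Taken by role, 4 of the 17 tested assembly and supercomplex factors of the naming rule fell (23.5%) and none rose, with a median log2 change of -0.13. Of 59 structural subunits 3 fell (5.08%) and 1 rose (1.69%), with a median of -0.02. Of all tested genes, 7.03% fell and 15.3% rose. Among lists read below, the 34 tested assembly factors not named by the rule had a median of -0.11, and 4 of them fell and 1 rose. The median was also low in mitochondrial ribosomal proteins (-0.18), cytochrome c and CYC1 (-0.17), nuclear regulators (-0.15) and other electron entry enzymes (-0.14). It was -0.05 in ATP synthase and 0.02 in the TCA cycle and pyruvate dehydrogenase. The difference between roles was not tested. The assembly median was below zero in every scaling and with any 1 library left out, and the count that fell ranged from 2, without knockdown replicate 2, to 3 with any other library left out. The structural median turned to 0.01 under quantile and 0.03 under cyclic loess scaling, and was 0.02 without knockdown replicate 2 and 0.01 without wild-type replicate 2. Level went along with change over all tested genes, whose median log2 change was 0.07 under 10 RPKM and -0.11 at 100 RPKM or more. Of the 16 respiratory chain genes under 10 RPKM 4 fell and none rose, with a median of -0.04. Of all tested genes at that level, 4.30% fell and 17.5% rose. Of the 16 respiratory chain genes at 100 RPKM or more, none fell and 1 rose, with a median of -0.02. Among all tested genes at that level, 13.0% fell and 6.39% rose.

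Replicates of a group also differed in a way the respiratory chain genes shared. Knockdown replicate 1 was above replicate 2 in 59 of the 76 genes and wild-type replicate 2 was above replicate 1 in 49. Both held in 53.9% of these genes, where they held in 30.5% of all tested genes. The median absolute log2 difference between replicates was 0.12 in the knockdown group and 0.13 in the wild-type group, so the changes of most genes were of the size of the replicate difference. Its part in the results was not tested.

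Splicing was read as the PSI, how often reads use an event's examined junction among those that compete with it, in percent. The deposited events all vary, since the PSI of each complete event ranged over at least 15.2 percentage points across the 4 libraries, and read counts behind each PSI are not given. None of the 4 respiratory chain events passed the test or had an unadjusted p under 0.05, where 0.107% of 3744 events passed and 18.4% had an unadjusted p under 0.05 with a difference of at least 10.0 percentage points. Their genes, UQCR11, NDUFB5 and NDUFV3, did not pass the expression test either.

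UQCR11 encodes a small subunit of complex III, and its event is annotated as an alternative promoter. It joins 1 downstream splice site to either of 2 upstream sites, at chr19:1602037 and chr19:1602294 (- strand). Whether the upstream sites belong to separate exons was not examined. The PSI of the examined junction was 30.2% and 65.0% in knockdown libraries, against 18.8% and 26.7% in wild-type libraries. Both knockdown values were above both wild-type values, but they lay far from each other. The difference was 24.9 percentage points (limma adjusted p = 0.292). UQCR11 itself had 29.3 and 22.8 RPKM in knockdown libraries, against 21.2 and 25.1 RPKM in wild-type libraries.

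NDUFV3, a subunit near the flavin site of complex I, has an event with a choice between donor sites on chromosome 21 (+ strand). The stretch chr21:42879702-42879765 of hg38 holds both donors, with the 34 bases between them in capitals.
NDUFV3 donors: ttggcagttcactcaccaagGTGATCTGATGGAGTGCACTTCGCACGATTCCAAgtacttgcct
Each donor is followed by GT, and the examined junction, chr21:42879755-42883606, uses the downstream one. Its PSI was 34.5% and 77.8% in knockdown libraries, against 50% and 71.4% in wild-type libraries, a difference of -4.58 percentage points (limma adjusted p = 0.885). Knockdown libraries lay on either side of both wild-type libraries. NDUFV3 had 6.29 and 5.67 RPKM in knockdown libraries, against 4.76 and 5.32 RPKM in wild-type libraries (log2 change 0.21, adjusted p = 0.227).

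NDUFB5, an accessory subunit of the complex I membrane arm, has 2 listed events that share their background junction, chr3:179604939-179616983, and so are not independent. The cassette exon junction, chr3:179616049-179616983, had a PSI of 60.8% and 76.2% in knockdown libraries, against 77.7% and 55.9% in wild-type libraries. The event annotated as an alternative promoter, chr3:179615059-179615983, had 51.9% and 73.2% in knockdown libraries, against 69.9% and 54.5% in wild-type libraries. Group means differed by 1.72 and 0.331 percentage points, far less than replicates did, with limma adjusted p = 0.938 and 0.987.

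**Figure D4:**
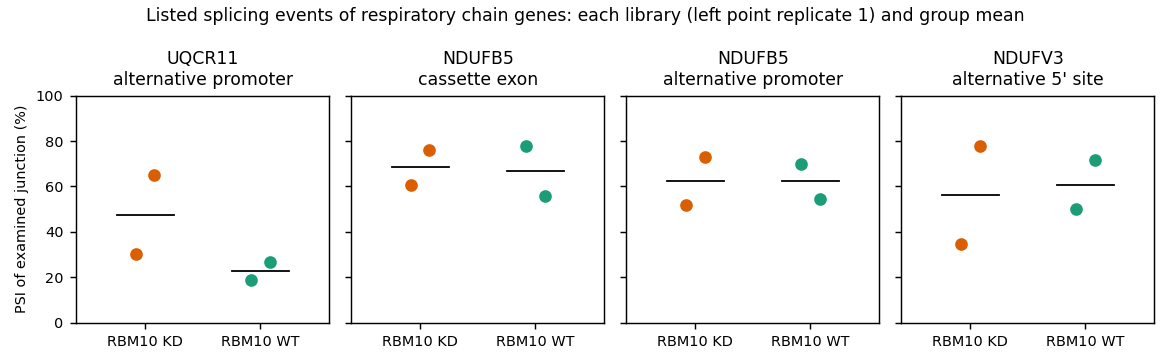
PSI (%) of the examined junction in each library for the 4 listed events, knockdown left and wild type right, the left point of a pair being replicate 1 and the line the mean of 2 libraries. In UQCR11 both knockdown points are above both wild-type points, and in the other 3 events the groups overlap.

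Other nuclear genes of the same pathway were read from lists of textbook members. Over all tested genes 7.03% fell and 15.3% rose, and the counts of the lists here and below were not tested against these shares. Of 36 gene IDs of assembly factors not named by the rule, SCO2 being listed under 2, 34 were tested, 4 fell and 1 rose, with a median log2 change of -0.11. ACAD9, a complex I assembly factor, fell, with 13.3 and 13.2 RPKM in knockdown libraries, against 21.1 and 21.5 RPKM in wild-type libraries (log2 change -0.64, limma adjusted p = 0.00156). SDHAF2, which puts flavin into SDHA, fell by 0.58 on the log2 scale (adjusted p = 0.00454), and SDHAF4, which helps join SDHA to SDHB, rose by 0.52 (adjusted p = 0.0135), a rise that was not called without knockdown replicate 2. The count that fell was 3 without either knockdown library and 6 without wild-type replicate 1. The mitochondrial ribosome, which makes the mitochondrially encoded subunits, had 12 of 77 proteins lower and none higher, with a median of -0.18. By level, the share of all tested genes that fell was 4.30% under 10 RPKM and 11.5% at 10 to 50 RPKM. It was 14.1% at 50 to 100 RPKM and 13.0% at 100 RPKM or more. MRPS33 had 2.50 and 2.86 RPKM in knockdown libraries, against 6.68 and 6.57 RPKM in wild-type libraries (log2 change -1.05, adjusted p = 0.000188), and MRPL1 fell by 0.55 on the log2 scale (adjusted p = 0.00687). The count of 12 was 7 under cyclic loess scaling, 14 under quantile scaling and 15 under TMM-like scaling. It was lower than 12 with any 1 library left out, where the median ran from -0.228 to -0.135.

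Enzymes that feed ubiquinone by other routes had 2 of 6 tested members lower and none higher. DHODH, which makes orotate for pyrimidines, had 2.797 and 2.99 RPKM in knockdown libraries, against 4.73 and 4.93 RPKM in wild-type libraries (log2 change -0.58, limma adjusted p = 0.00500). SQOR, which oxidises sulfide, fell by 0.35 on the log2 scale (adjusted p = 0.0357). The count was 1 without either knockdown library or without wild-type replicate 1. Cytochrome c (CYCS) and CYC1 did not pass, at log2 changes of -0.20 and -0.15 (adjusted p = 0.163 and 0.351). In ATP synthase 1 of 19 genes fell, the c-ring gene ATP5MC1, with 304 and 279 RPKM in knockdown libraries, against 363 and 360.4 RPKM in wild-type libraries (log2 change -0.31, adjusted p = 0.0349). No ATP synthase gene passed with any 1 library left out or under cyclic loess scaling.

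Regulators of nuclear and mitochondrial transcription had 2 of 14 tested members lower and 1 higher. Their median log2 change was -0.15, and it was below zero in every scaling. TFB2M, which mitochondrial RNA polymerase needs to start, fell by 0.54 on the log2 scale (limma adjusted p = 0.00974), and the coactivator PPRC1 fell by 0.50 (adjusted p = 0.0174). POLG, the mitochondrial DNA polymerase, rose by 0.42 (adjusted p = 0.0168). NRF1 and GABPA, factors for many promoters of the respiratory chain, did not pass, at log2 changes of -0.21 and 0.21 (adjusted p = 0.218 and 0.374). The calls of regulators changed when single libraries were left out. Their median was -0.08 without knockdown replicate 1 and -0.16 without knockdown replicate 2. It was -0.06 without wild-type replicate 1 and -0.22 without wild-type replicate 2. In the TCA cycle and pyruvate dehydrogenase, 2 of 18 genes rose and none fell. IDH2 had 54.4 and 48.6 RPKM in knockdown libraries, against 32.8 and 34.97 RPKM in wild-type libraries (log2 change 0.59, adjusted p = 0.00307), and OGDH rose by 0.35 (adjusted p = 0.0437). That count was 1 with any 1 library left out and under quantile or TMM-like scaling. Mitochondrially encoded subunits were not analysed here.

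**Figure D5:**
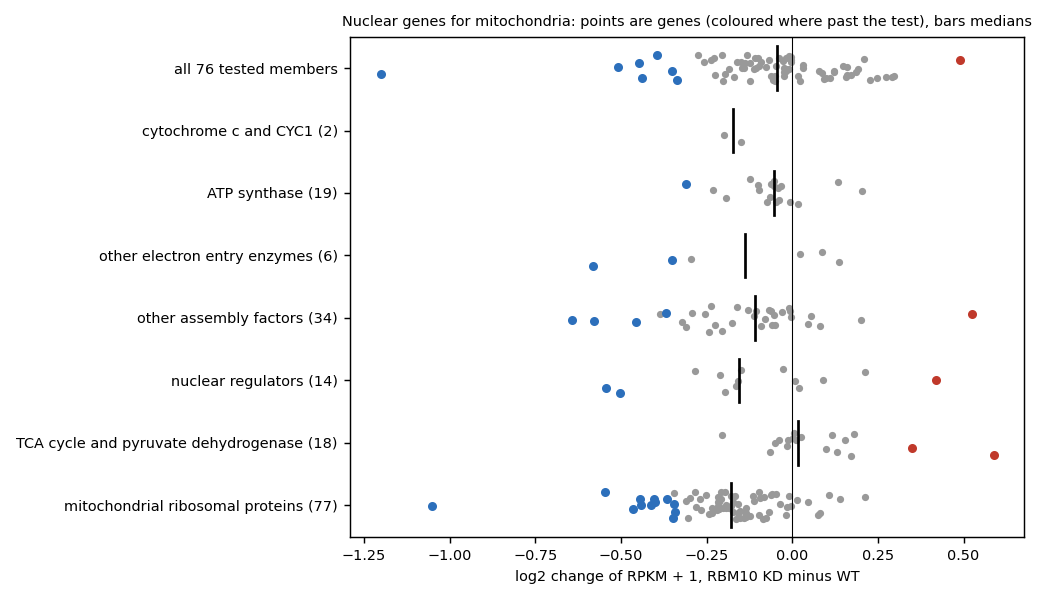
Log2 change of RPKM + 1 (knockdown minus wild type) of each tested gene in the respiratory chain group and in 7 other lists, with the number tested in brackets, the black bar as the median and genes past the limma test in colour. Medians run from -0.18 for mitochondrial ribosomal proteins to 0.02 for the TCA cycle and pyruvate dehydrogenase, which is -0.03 under TMM-like scaling.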

How the data were processed

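Polyadenylated RNA of 2 RBM10 knockdown and 2 RBM10 wild-type libraries of A549 cells was analysed. STAR 2.6.1 and hg38 are named per the submitters' processing notes. For the counter, annotation, splicing caller and use of strand, nothing is given in the sources used here. Expression values were deposited by the authors in the form of RPKM, a unit inferred from the values, since none is written in the file. Of 980 single-exon protein-coding genes in GENCODE v29 (hg38), 17 were listed (1.74%), against 14211 of 18971 with several exons (74.9%). Read counts are not given, and relative depth was taken from the steps between low values. The authors deposited PSI as a fraction from 0 to 1, printed here as percent, with no read counts.

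Gene symbols were matched by gene ID. Log2(RPKM + 1) was compared by limma (version 3.58.1, R 4.3.3), with a mean-variance trend and no covariate, for genes with a mean of at least 1 RPKM in 1 group, Benjamini-Hochberg adjusted over all 10182. PSI was compared with limma over 3744 complete events, where a call needed a difference of at least 0.1 beside an adjusted p under 0.05. All tests were two-sided, the threshold was 0.05, and the code was checked on simulated data. Overlaps were counted on merged exons of the annotation. Items withheld from the text are not reported here by name, and stay in the counts.

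Genes named are those past the test, the 2 highest and the largest increase and decrease of each class, SDHA to SDHD, isoforms of complex IV and III subunits, and genes with listed events, and for other lists at most 2 genes past the test in each direction. NDUFB11, COX16, NDUFC2, NDUFA13, NDUFA7, COX18, NDUFAF2, NDUFAF3, CYCS, CYC1, NRF1, GABPA and genes overlapping those named were named after their values were seen. Members, lists and this rule were chosen with earlier results of these data known. Alternatives were another pseudocount, no filter, 3 other scalings, no trend, a replicate block, and each library left out.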

Additional observations from a re-analysis of the deposited data

How the results depend on the processing

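The counts of respiratory chain genes depended on the filter, on scaling and on single libraries. Without a filter on low values 2 rose and 1 fell, and 322 of all genes fell. Under quantile scaling 3 rose, and under cyclic loess scaling 5 rose. With any 1 library left out, the number that rose was 1 to 3 and that fell 2 to 5, while all genes that fell numbered 407 to 650 and the summed ratio of complex I assembly factors was 0.810 to 0.959. The cause was not tested. Replicate numbers do not pair the samples by the labels, and deviations of same-numbered libraries had a correlation of -0.444 over genes, so a crossed pairing was also tried. With a replicate block, 3 respiratory chain genes and 438 of all genes fell. With a crossed block, chosen after seeing the data, 6 rose and 14 fell, and over all genes 2466 rose and 1730 fell. RBM10 fell, and no splicing event of these genes passed, in every setting run for them. A lone library in a group was assumed to vary like the other group. With 2 libraries a group, no read counts and depth known only in relative terms, small changes in genes near 1 RPKM could not be resolved.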

Other observations

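Non-coding genes that share the name of a respiratory chain gene were listed under 1 RPKM in every library and were not tested. COX10-DT, which lies beside COX10, had 0.327 and 0.312 RPKM in knockdown libraries, against 0.120 and 0.140 RPKM in wild-type libraries, so that both knockdown libraries were higher, while COX10 itself fell. NDUFA6-DT had 0.262 and 0.706 RPKM in knockdown libraries, against 0.328 and 0.325 RPKM in wild-type libraries. NDUFV2-AS1 had 0.164 and 0.124 RPKM in knockdown libraries, against 0.220 and 0.119 RPKM in wild-type libraries. UQCRB-AS1 was listed at 0.0984 and 0.234 RPKM in knockdown libraries, against 0.0984 RPKM in both wild-type libraries. The value 0.0984 was identical in knockdown replicate 1 and both wild-type libraries, which differ in depth, and may be a floor and not a measured level. The groups overlapped in NDUFA6-DT, NDUFV2-AS1 and UQCRB-AS1.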
